A study of Mus musculus with 2 samples.

Results

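The genes described here were 10 antioxidant genes of glutathione metabolism and of the Nrf2 pathway, chosen by name from the 20198 genes of the count table: Gclc, Gclm, Gsta2, Gsta4, Gstm1, Nqo1, Ptgr1, Txnrd1, Srxn1 and Hmox1. Each was read in every deposited cell cluster and in both libraries of the mouse cornea, one of unwounded corneas (UW) and one of corneas taken 24 h after wounding (W). The mice were males of 6 to 8 weeks with no strain given, and 4 mice (8 corneas) were pooled into each library. In W, the central epithelium within a circle of 2.5 mm had been scraped away and the eye had received an antibiotic, whereas the UW mice were normal. The corneas were separated into epithelium and remaining tissue, dissociated with enzymes and sequenced with the 10x Genomics 3′ chemistry, in which each molecule carries a unique molecular identifier (UMI).

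Nrf2, encoded by Nfe2l2, is a transcription factor that its partner Keap1 holds at a low level until oxidants or electrophiles modify Keap1. It then pairs with small Maf proteins at antioxidant response elements, from which Bach1 can displace it, and its known targets supply glutathione and thioredoxin, conjugate or reduce electrophiles and break down haem. The cornea is exposed to light and oxygen, and its epithelium is known for a high content of detoxifying enzymes.

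The promoters of Gclm, Txnrd1 and Srxn1 are shown because they held the core of the antioxidant response element, written TGACNNNGC or, on the opposite strand, GCNNNGTCA. That of Ptgr1 is shown because Ptgr1 was lower in W in every cluster with both libraries. The windows run from 250 bases before to 50 bases after a start site (RefSeq, GRCm38.p6, each printed on the strand of its gene). The capitals mark that core and, in Srxn1, also the AP-1 core TGANTCA, which reads the same on both strands.
Gclm promoter, chr3:122245307-122245606, plus strand: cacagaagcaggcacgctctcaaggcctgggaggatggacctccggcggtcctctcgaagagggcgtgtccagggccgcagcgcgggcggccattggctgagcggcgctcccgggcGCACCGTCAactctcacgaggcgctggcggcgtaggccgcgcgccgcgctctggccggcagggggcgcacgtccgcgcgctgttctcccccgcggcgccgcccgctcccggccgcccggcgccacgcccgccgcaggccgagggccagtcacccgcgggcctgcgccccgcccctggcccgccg
Txnrd1 promoter, chr10:82858956-82859255, plus strand: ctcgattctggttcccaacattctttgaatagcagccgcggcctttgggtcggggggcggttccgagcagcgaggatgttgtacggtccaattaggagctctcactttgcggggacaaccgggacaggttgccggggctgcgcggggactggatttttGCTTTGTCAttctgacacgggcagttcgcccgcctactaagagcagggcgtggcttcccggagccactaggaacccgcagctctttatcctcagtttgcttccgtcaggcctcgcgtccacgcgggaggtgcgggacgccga
Srxn1 promoter, chr2:152105274-152105573, plus strand: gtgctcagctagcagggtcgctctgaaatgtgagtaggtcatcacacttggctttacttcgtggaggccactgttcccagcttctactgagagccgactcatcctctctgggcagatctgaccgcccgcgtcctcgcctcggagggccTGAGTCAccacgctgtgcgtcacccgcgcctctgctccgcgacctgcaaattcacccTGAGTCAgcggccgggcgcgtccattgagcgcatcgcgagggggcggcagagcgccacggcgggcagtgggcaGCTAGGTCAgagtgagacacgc
Ptgr1 promoter, chr4:58987029-58987328, minus strand: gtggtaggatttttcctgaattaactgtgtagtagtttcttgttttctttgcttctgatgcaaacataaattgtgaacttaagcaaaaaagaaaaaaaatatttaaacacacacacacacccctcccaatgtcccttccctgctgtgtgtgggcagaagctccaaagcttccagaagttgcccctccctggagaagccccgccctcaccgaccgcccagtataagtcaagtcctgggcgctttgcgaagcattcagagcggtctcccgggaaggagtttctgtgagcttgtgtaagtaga
Among the members, 7 of 10 had a promoter entry, with 10 windows between them, and 3 held the antioxidant core: Gclm, 1 of the 3 windows of Txnrd1, and Srxn1. Over all 32851 windows of the same length, 12.4% held that core and 7.81% held the AP-1 core, and by gene, counting any window, the shares were 13.99% and 8.97% of 27025 genes. Srxn1 held 2 AP-1 cores (first bases at -102 and -45 from the start site) and was the only member with one, and none of these matches overlapped another. The match in Srxn1 began at 29, that in Gclm at -134 and that in Txnrd1 at -92. The windows of Ptgr1, Nqo1, Gsta2 and Gstm1 held neither motif, which says nothing about sequence outside them.

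The table held 16450 cells of the UW library and 12417 of the W library, with a median of 22014 and 20290 UMIs per cell, and 52 cell barcodes occurred in both. The study states more cells for each library than the tables used here hold. Values are UMIs of a gene per 1000000 UMIs (CPM), summed over the cells of a cluster and library, with exact Poisson 95% intervals. Each condition was 1 library, so no difference between UW and W had a replicate check. The intervals cover counting error only. Of the deposited clusters, 12 held at least 50 cells in both libraries. Clusters 1 to 6, 8, 9 and 11 were corneal epithelial cell (CEpC)-like, led for example by Itgb4 and Lamb3 in cluster 3 (basal), Wfdc18 and Dlk2 in 9, Mki67 in 8, Mcm3 and Hells in 11, Pygl and Dapl1 in 1, Dsg1a and Krt16 in 4, Ly6g6c and Spink5 in 2, Psca and Krt78 in 6 (superficial) and Krt4 and Krt19 in 5 (conjunctival markers). Cluster 7, led by Lce3a and other genes of the outermost cells, scored low for the epithelial markers. It was summed with the epithelial clusters all the same. Cluster 0 was corneal stromal cell (CSC)-like. Cluster 10, led by Penk and Myoc, was high in the stromal markers and was not named. Its summed list of corneal endothelial genes was also the highest of the clusters, at 1247 CPM in UW and 1053 CPM in W. Of these genes, Col8a1 was 306 and 211 CPM and Slc4a11 53.9 and 6.97 CPM. Clusters 13 to 16 had 50 cells only in W: 14 and 15 were monocyte lineage (Mono)-like, 16 was T cell-like, and 13, high in the neutrophil genes S100a8 and S100a9, had too few UMIs per cell to be named. The layer genes themselves differed between the libraries. The superficial list was lower and the basal list, most of it Krt14 in W, was higher in W in each of the 10 epithelial clusters (Krt14 136 CPM in UW and 17124 CPM in W in cluster 1), so the cells of 1 cluster differed in layer genes between UW and W. The other basal genes did not all go with Krt14. In clusters 8, 9 and 11, Col17a1 and Itgb1 were lower in W (792 and 543 CPM, and 246 and 136 CPM, in cluster 9). Lamb3 was higher there, and Itgb4 was higher in clusters 8 and 11 but lower in 9. The part of this in the values below was not tested.

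Across the 12 clusters, 110 of the 120 pairs of a member and a cluster had at least 20 UMIs over both libraries and at least 10 CPM in one of them. Among these, 13 pairs (11.8%) were at least 2-fold higher in W, where 7.46% of all pairs of gene and cluster were, and 15 pairs (13.6%) were at least 2-fold lower, where 8.24% of all pairs were. The higher pairs were mostly Hmox1 (6) and Srxn1 (3), with 2 of Gsta2 and 1 each of Gclm and Nqo1. The lower pairs were Ptgr1 (7), Gsta2 (4), Gstm1 (3) and Nqo1 (1). Gclc, Gsta4 and Txnrd1 had none in either direction, although Txnrd1 in cluster 7 was past 2-fold lower with TMM or median-of-ratios scaling. In 5 clusters, 3 or more members lay past 2-fold on the same side. Of these, 3 of 8 members tested were at least 2-fold higher in cluster 6 (9.93% of all genes) and 3 of 7 in cluster 7 (15.2%). In cluster 8, 4 of 9 were at least 2-fold lower (7.99%), and in cluster 3, 3 of 10 were lower (9.6%) and 1 was higher (10.4%). In cluster 11, 3 of 10 were lower (7.97%) and 1 was higher (8.99%). The other 7 clusters had at most 2 members on either side. The 10 genes thus did not move as a block, and the same gene could lie on opposite sides in different layers of the epithelium.

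**Figure D1:**
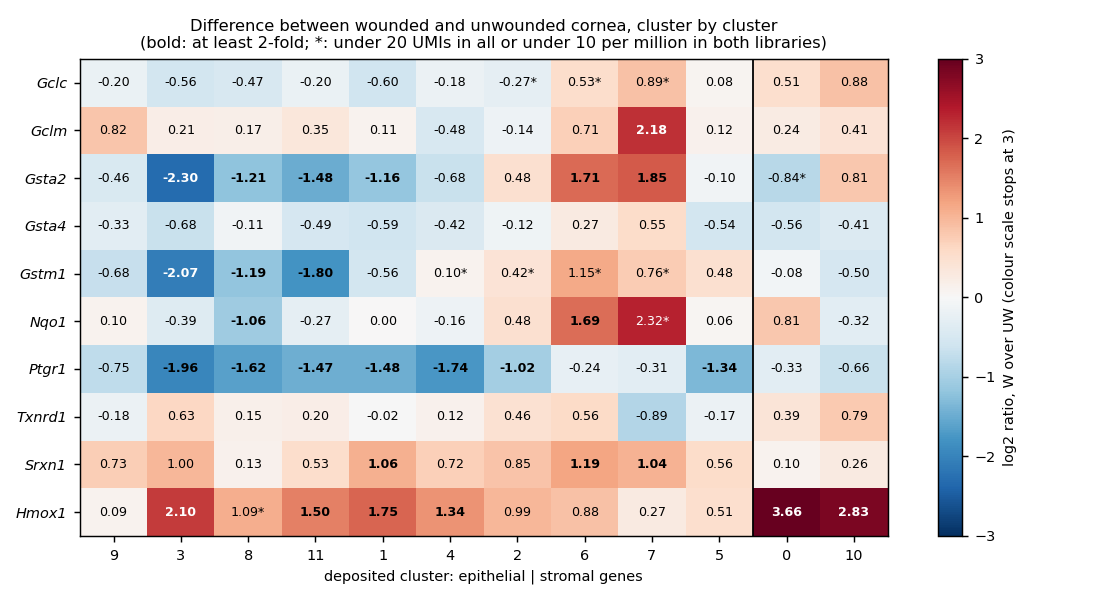
Log2 ratio of W over UW (colour and printed value) for each member (rows, by role) in each cluster with both libraries (columns, epithelial clusters on the left). Bold values are at least 2-fold and an asterisk marks pairs under the count minimum. Ptgr1 is below 0 in all 12 clusters, Srxn1 and Hmox1 are above 0 in all 12, and Gsta2 runs from -2.30 in cluster 3 to 1.71 in cluster 6 and to 1.85 in cluster 7, where its UW level was not above background.

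Glutathione synthesis came first in the order of roles. Gclc (chr9:77754535-77794485, plus strand, GRCm38) encodes the catalytic subunit of glutamate-cysteine ligase, the enzyme of the first step of glutathione synthesis. In UW its level was highest in the cycling cluster 8, at 62.3 CPM (58.0 to 66.8), and lay between 42.2 and 49.9 CPM in the basal, Wfdc18 and S phase clusters 3, 9 and 11, whose neighbouring intervals overlapped. It was 3.03 CPM in cluster 6 and 1.90 CPM in cluster 7, both under the count minimum. In W the epithelial levels ran from 44.8 CPM in cluster 8 to 3.52 CPM in cluster 7. Gclc was lower in W in cluster 1 (27.0 and 17.8 CPM in UW and W, log2 ratio -0.60, 95% interval -0.80 to -0.41), in cluster 3 (49.9 and 33.9 CPM, -0.56) and in cluster 8 (62.3 and 44.8 CPM, -0.47). The summed epithelium lay the other way (19.1 and 24.9 CPM, 0.38), but with equal weight for each cluster the ratio was -0.32. Gclc was higher in both clusters with stromal genes, with 40.6 and 58.0 CPM in cluster 0 (log2 ratio 0.51) and 40.8 and 75.1 CPM in cluster 10 (0.88), where the intervals of the levels did not overlap. None of these reached 2-fold.

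Gclm (chr3:122245557-122270732, plus strand) encodes the modifier subunit of the same ligase. It was highest in cluster 9 in both libraries, at 118 CPM in UW and 208 CPM in W (log2 ratio 0.82, 0.72 to 0.93), although the UW interval overlapped that of cluster 8 (109 CPM). In cluster 7 it was 4.05 CPM in UW and 18.4 CPM in W, the only cluster past 2-fold (log2 ratio 2.18). That UW level was 7.81% of the epithelial mean, near the 6.98% of the epithelial keratin Krt12 in the stromal cluster 0, so the ratio has a base near background. In cluster 6 Gclm was 15.1 and 24.6 CPM (0.71). It lay the other way in cluster 4, with 41.9 CPM in UW and 30.0 CPM in W (-0.48). Cluster 0 held 97.6 and 115 CPM (0.24). Summed over the epithelial clusters, Gclm was the 1 member at least 2-fold higher in W (38.5 and 78.1 CPM, 1.02), where 12.5% of all genes tested were. Cluster 9, where Gclm was highest, held 521 of 13501 epithelial cells in UW and 956 of 8507 in W, and cluster 8 held 535 and 1332. With equal weight for each epithelial cluster the ratio was 0.35.

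Over the 28 units of cluster and library with at least 50 cells, Gclc and Gclm had a Pearson r of 0.81 on log2(CPM + 1). Gstm1 had an r of 0.81 with each of them. These correlations describe units that share libraries, depth and free RNA.

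**Figure D2:**
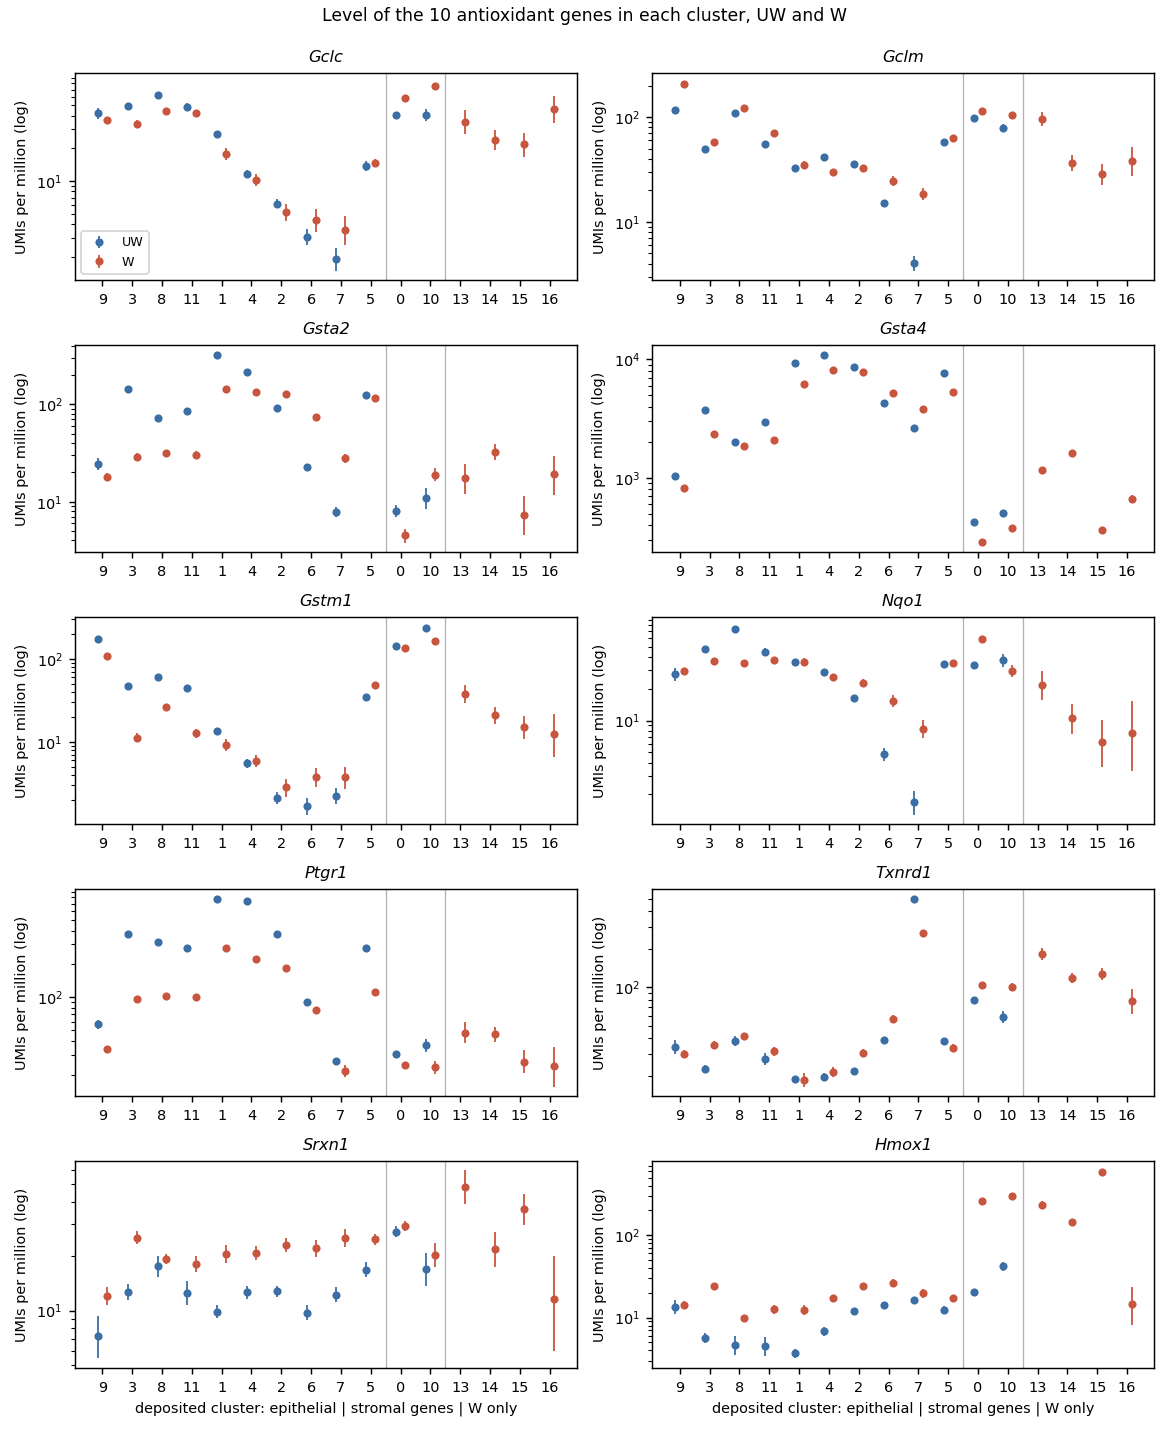
Level of each member (CPM, log axis, 95% Poisson intervals) in each cluster, UW in blue and W in red, with the epithelial clusters on the left, clusters 0 and 10 in the middle and the clusters seen only in W on the right. Gclc and Gstm1 are low in the superficial clusters 6 and 7, whereas Txnrd1 is highest in cluster 7 at 493 CPM in UW.

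The glutathione transferases differed from each other both in where they were found and in how they differed after wounding. Gsta4 (chr9:78182774-78209349, plus strand), whose enzyme conjugates glutathione to 4-hydroxynonenal and other products of lipid peroxidation, was highest in cluster 4 (10917 CPM in UW and 8141 CPM in W), followed in UW by clusters 1 (9355 CPM), 2 (8554 CPM) and 5 (7645 CPM), and lowest of the epithelial clusters in 9 (1042 and 831 CPM). No neighbours in the UW order had overlapping intervals. It was lower in W in 8 of the 10 epithelial clusters, most in cluster 3 (3737 and 2337 CPM, log2 ratio -0.68), and higher in the superficial clusters 6 (4315 and 5194 CPM, 0.27) and 7 (2626 and 3837 CPM, 0.55). No cluster reached 2-fold. The sign in cluster 8 (-0.11) turned to 0.06 once each cell was thinned to 5000 UMIs.

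Gsta2 (chr9:78331018-78355788, minus strand), an alpha-class transferase, was among the 10 leading genes of cluster 1, so its height there is in part what set that cluster apart. There it was 319.5 CPM in UW (315 to 324) and 143 CPM in W (137 to 150), a log2 ratio of -1.16. It was lower in W in the basal and proliferating clusters, with 144 and 29.1 CPM in cluster 3 (-2.30, -2.42 to -2.18), 85.2 and 30.4 CPM in cluster 11 (-1.48) and 72.9 and 31.4 CPM in cluster 8 (-1.21). It was higher in W in the superficial clusters, with 22.6 and 74.1 CPM in cluster 6 (1.71, 1.59 to 1.84) and 7.77 and 28.0 CPM in cluster 7 (1.85, 1.61 to 2.08). After thinning each cell to 5000 UMIs, the share of cells with a Gsta2 UMI was 3.69% in UW and 14% in W in cluster 7. In cluster 0, where epithelial genes should be absent, the thinned share was 4.10% in UW and 2.05% in W, so the UW share of cluster 7 was not above background. The ratio in cluster 7 therefore has a UW level at background as its base.

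In the same 2 superficial clusters other layer genes differed too: the summed suprabasal list was 989.5 CPM in UW and 4434 CPM in W in cluster 6, and 375 and 1838 CPM in cluster 7, while the superficial list was 47745 and 24777 CPM, and 59069 and 30309 CPM. Of the suprabasal list only Krt16 was higher in W (116 and 3996 CPM in cluster 6, 90.3 and 1647 CPM in cluster 7). Its other genes, Cdkn1a, Dsg1a, Dapl1 and Pygl, were lower in W in both clusters. The part of this in the values of Gsta2, Gsta4, Nqo1 and Gclm was not tested. The transcripts of Gsta2 and its neighbour Gsta1 were 97.2% identical, and 94.3% over the last 300 bases, where 3′ reads fall, so reads may have been split between them. Gsta1 was 9.0 and 28.1 CPM in UW and W in cluster 6 and 1.24 and 9.63 CPM in cluster 7 (under the count minimum), the same direction as Gsta2. In clusters 4 and 5 the log2 ratios of Gsta1 were 0.29 and 0.44, against -0.68 and -0.10 for Gsta2.

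Gstm1 (chr3:108012255-108017973, minus strand), a mu-class transferase, had its highest levels outside the differentiated epithelium. It was 231 CPM in UW and 164 CPM in W in cluster 10, 144 and 136 CPM in cluster 0, and 172 and 107 CPM in cluster 9, which carried the limbal marker Wfdc18. Cluster 6 held 1.70 CPM in UW. Gstm1 was lower in W in cluster 3 (47.0 and 11.2 CPM, log2 ratio -2.07, -2.27 to -1.88), cluster 11 (43.8 and 12.6 CPM, -1.80) and cluster 8 (60.2 and 26.3 CPM, -1.19), and higher in cluster 5 (34.9 and 48.8 CPM, 0.48). In cluster 8 the cells with no UMI of 9 immune genes, S100a8 and S100a9 among them, held 61.6 and 64.9 CPM. These were 454 of 535 cells in UW but only 67 of 1332 in W. In these W cells Gclm was 205 CPM, against 123 CPM in all W cells of the cluster. Whether they are like the other W cells was not tested. Summed over the epithelial clusters it was 19.3 CPM in UW and 27.8 CPM in W (0.53), but with equal weight for each cluster the ratio was -0.73.

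In cluster 0, Gsta2, Gsta4 and Ptgr1 stood in UW at 7.27%, 8.08% and 9.26% of their epithelial mean, beside 6.98% for the epithelial keratin Krt12. In the W-only clusters 13, 14 and 15, Gsta4 was at 26.6%, 37.5% and 8.41% and Krt12 at 25.7%, 43.5% and 8.96%. In cluster 0 in W, Gsta2 and Gsta4 were at 6.14% and 6.68% beside Krt12 at 5.29%, but Ptgr1 was at 19.9%, and in cluster 10 in W, where Krt12 was at 6.26%, Gsta2 was at 25.9% and Ptgr1 at 19.0%. The levels of Gsta4 lay close to those of Krt12 and were not read as expression by stromal or immune cells. Gstm1 in cluster 0 was at 375% of its epithelial mean in UW, and Gclc at 152% and Gclm at 188%, well above the Krt12 level.

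Nqo1 (chr8:107388225-107403206, minus strand), which encodes a reductase that turns quinones into hydroquinones, was highest in UW in cluster 8 (72.9 CPM, 68.3 to 77.8) and lowest in cluster 7 (1.68 CPM, 1.29 to 2.16). In W the epithelial levels ran from 8.37 CPM in cluster 7 to 37.3 CPM in cluster 11. The UW level in cluster 7 was under the count minimum and at 5.34% of the epithelial mean, no higher than Krt12 in cluster 0. Nqo1 was lower in W in cluster 8 (72.9 and 35.0 CPM, log2 ratio -1.06, -1.18 to -0.94, under 2-fold with TMM at -0.95 and with median-of-ratios scaling at -0.96) and higher in cluster 6 (4.78 and 15.4 CPM, 1.69, 1.41 to 1.96). In cluster 0 it was 33.6 CPM in UW and 59.0 CPM in W (0.81, 0.70 to 0.93), whereas in cluster 10 it was 37.1 and 29.7 CPM (-0.32). In the summed epithelium it was 26.2 and 30.3 CPM (0.21), a direction that turned to -0.01 with TMM scaling, -0.03 with median-of-ratios scaling and -0.16 with equal weight for each cluster.

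Ptgr1 (chr4:58965439-58987119, minus strand), which encodes prostaglandin reductase 1, an enzyme that reduces the double bond of lipid enals and of inflammatory lipids, had a level lower in W in all 12 clusters, of which clusters 0, 7 and 10 had UW levels at or near background. In cluster 10 the UW level was 11.1% of the epithelial mean, beside 8.04% for Krt12. The direction held under TMM and median-of-ratios scaling, but cluster 2 (-1.02) then fell just under 2-fold at -0.99 with both. In cluster 0 its UW level (30.6 CPM) lay near the Krt12 level and its W level (24.4 CPM) above it, with a log2 ratio of -0.33, and free RNA was not removed from either level. It was among the 10 leading genes of cluster 1, where it was 773 CPM in UW (766 to 781) and 278 CPM in W (269 to 287), a log2 ratio of -1.48. The lowest ratios were in cluster 3 (376 and 97.0 CPM, -1.96), cluster 4 (735 and 221 CPM, -1.74) and cluster 8 (312 and 102 CPM, -1.62). The ratios nearest 0 were in the superficial cluster 6 (90.3 and 76.4 CPM, -0.24) and in cluster 7 (26.7 and 21.6 CPM, -0.31), where the UW level, 8.10% of the epithelial mean, was not above that of cluster 0 and so has a base at background. In cluster 1 the share of thinned cells with a Ptgr1 UMI was 96.2% in UW and 66.2% in W. Summed over the epithelial clusters, Ptgr1 was the 1 member at least 2-fold lower in W (392 and 120 CPM, -1.71), where 7.83% of all genes tested were. Over the 28 units its level followed that of Gsta2 (r = 0.90), and it ran against that of Txnrd1 (r = -0.78).

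Txnrd1 (chr10:82833951-82897712, plus strand) encodes the cytosolic thioredoxin reductase. It stood in cluster 7 at 493 CPM in UW (486 to 501) and at 267 CPM in W (258 to 276), against 19.0 to 38.4 CPM in UW and 18.8 to 56.8 CPM in W in the other 9 epithelial clusters. In thinned cells of cluster 7, 72.8% had a Txnrd1 UMI in UW and 60.8% in W. The log2 ratio in cluster 7 was -0.89 (-0.94 to -0.83), and past 2-fold with TMM (-1.26) and median-of-ratios scaling (-1.29), whereas cluster 6 (38.4 and 56.8 CPM, 0.56) and cluster 3 (22.8 and 35.2 CPM, 0.63) were on the other side of 0. The summed epithelium gave 77.2 and 45.7 CPM (-0.76), and 0.37 once cluster 7 was left out, so cluster 7 set the direction of the sum. In cluster 0 Txnrd1 was 79.5 CPM in UW and 104 CPM in W (0.39), in cluster 10 58.5 and 101 CPM (0.79), and in the W-only cluster 13 it was 183 CPM.

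Srxn1 (chr2:152105516-152111376, plus strand) encodes sulfiredoxin, which restores overoxidised peroxiredoxins. Its levels varied least over the epithelium, from 7.22 CPM in cluster 9 to 17.6 CPM in cluster 8 in UW and from 12 CPM in cluster 9 to 25.3 CPM in cluster 3 in W. It was higher in W in all 12 clusters, and none of the alternative scalings, cell filters, count minimum or thinning turned the sign. Among the cells with no UMI of 9 immune genes, however, it was lower in W in cluster 0 (27.4 and 22.2 CPM), cluster 8 (15.99 and 11.4 CPM, with 67 W cells) and cluster 10 (17.7 and 17.5 CPM). The ratio was past 2-fold in clusters 6 (9.74 and 22.2 CPM, 1.19), 1 (9.89 and 20.7 CPM, 1.06) and 7 (12.3 and 25.3 CPM, 1.04), and just under it in cluster 3 (12.7 and 25.3 CPM). None of these 3 stayed past 2-fold under every alternative. Scaling by TMM brought cluster 1 to 0.94 and cluster 7 to 0.66, the mean of per-cell CPM brought cluster 6 to 0.99 and cluster 7 to 0.82, and thinning brought cluster 7 to 0.68. Thinning also brought clusters 2 (1.09), 3 (1.27) and 4 (1.02) past 2-fold. The intervals of the ratio reached 0 or below in cluster 0 (0.10, -0.04 to 0.24), cluster 8 (0.13) and cluster 10 (0.26).

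Hmox1 (chr8:75093621-75100589, plus strand) encodes haem oxygenase 1, which breaks haem down to biliverdin, carbon monoxide and iron. It showed the highest ratios of the 10 genes, and these lay outside the epithelium. In cluster 0 it was 20.3 CPM in UW (18.7 to 22.0) and 256 CPM in W (251 to 262), 12.6-fold higher (log2 ratio 3.66, 3.54 to 3.78), and in cluster 10 it was 42.2 CPM in UW (37.0 to 47.9) and 301 CPM in W (289 to 313), a log2 ratio of 2.83. In cluster 0 the share of cells with a Hmox1 UMI was 10.9% in UW and 78.5% in W, at medians of 11853 and 17588 UMIs per cell. Thinned to 5000 UMIs, with 51 UW and 11 W cells too shallow and left out, the shares were 5.91% and 55.2%. The T cell-like cluster, at a median of 4411 UMIs, had a share of 6.98%, or 3.90% of cells thinned to 2000 UMIs.

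**Figure D3:**
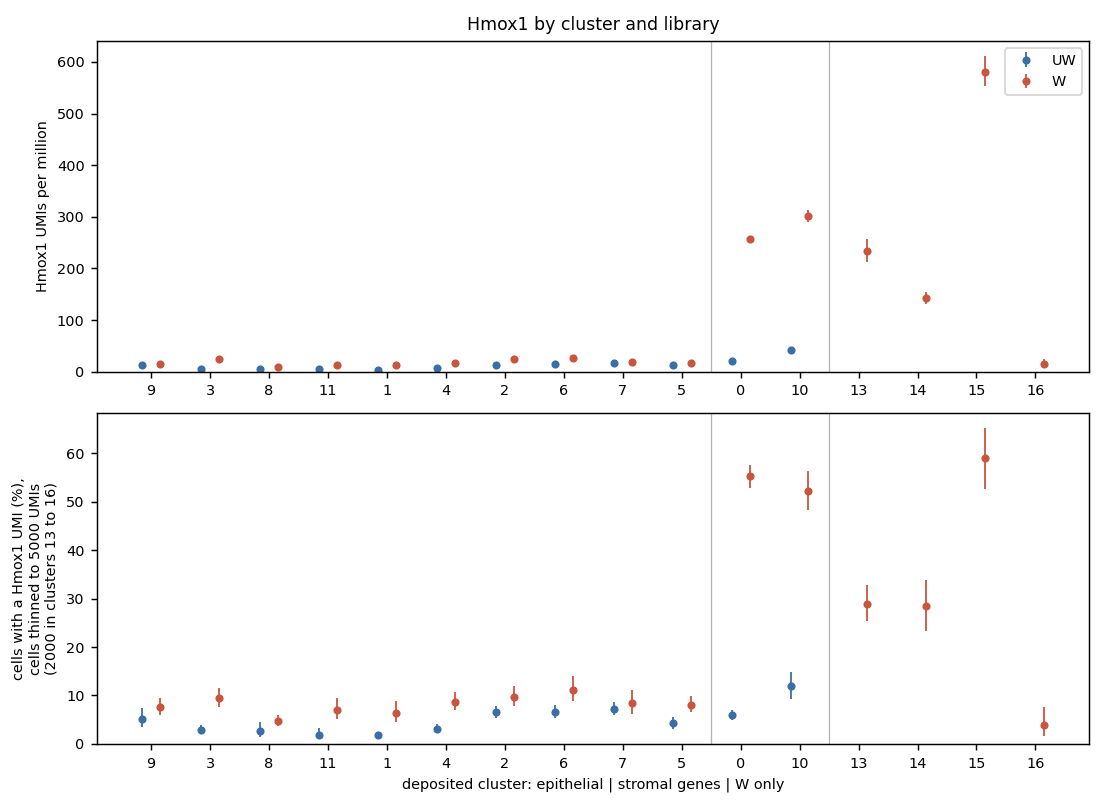
Hmox1 by cluster, as CPM (top, linear axis, 95% Poisson intervals) and as the share of thinned cells with a Hmox1 UMI (bottom, 95% Clopper-Pearson intervals), UW in blue and W in red. In W, clusters 0 and 10 stand at 256 and 301 CPM and cluster 15 at 581 CPM, whereas the epithelial clusters stay between 9.81 and 26.3 CPM.

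The summed immune list was also higher in W in clusters 0 and 10, although at a low level: its 9 genes summed to 17.9 CPM in UW and 117 CPM in W in cluster 0, and to 20.1 and 198 CPM in cluster 10. Most of the W sums came from the neutrophil genes S100a8 (46.0 CPM in cluster 0 and 57.0 CPM in cluster 10) and S100a9 (41.4 and 89.9 CPM). Ptprc was 0.68 and 1.08 CPM in W, and Itgam was lower in W than in UW in both clusters. In UW, Cd3e was at 0 in cluster 0, and Ptprc, Fcgr1 and Cd3e were at 0 in cluster 10. Among the W cells with no UMI of any of the 9 genes, Hmox1 was 244 CPM in cluster 0 (315 cells) and 296 CPM in cluster 10 (167 cells). The dissociation stress list moved the other way, with 12630 CPM in UW and 4959 CPM in W in cluster 0, and was lower in W in each of the 12 clusters. The red blood cell list summed to 0.281 CPM in UW and 2.93 CPM in W there.

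In the W-only clusters, Hmox1 was 581 CPM (553 to 611) in the Mono-like cluster 15, 234 CPM in cluster 13, 142 CPM in the Mono-like cluster 14 and 14.4 CPM (8.08 to 23.8) in the T cell-like cluster 16. In the W order, cluster 15 came first, then clusters 10, 0, 13 and 14. Only clusters 0 and 13 had overlapping intervals among these neighbours.

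In the epithelium Hmox1 was 3.67 to 16.3 CPM in UW and 9.81 to 26.3 CPM in W. It was higher in W in all 10 epithelial clusters, but the direction turned in cluster 7 (0.27) with TMM scaling (-0.11), median-of-ratios scaling (-0.13) and thinning (-0.02), and in cluster 9 (0.09) with the stricter cell filter (-0.10). It was past 2-fold in clusters 3 (5.64 and 24.1 CPM, 2.10), 1 (3.67 and 12.4 CPM, 1.75), 11 (4.46 and 12.7 CPM, 1.5) and 4 (6.79 and 17.2 CPM, 1.34). Cluster 2 (0.99) also passed with TMM and median-of-ratios scaling, at 1.02 in both. The W level of Hmox1 in these 10 clusters was 3.83% to 10.3% of that in cluster 0, beside 0.485% to 0.666% for the stromal gene Kera, and 1.69% to 4.53% of that in cluster 15, beside 0.057% to 0.222% for Lyz2. The immune list summed to 9.98 to 622 CPM in UW and 373 to 1161 CPM in W there, mostly S100a8 and S100a9 in W. Among the cells with no UMI of its 9 genes, Hmox1 was 5.80 CPM in UW and 18.1 CPM in W in cluster 3 (91 W cells). It was 3.51 and 10.6 CPM in cluster 1 (46 W cells), 6.77 and 17.1 CPM in cluster 4 (66) and 4.49 and 10.2 CPM in cluster 11 (23). Only cluster 7 lay the other way (15.5 and 0 CPM), with 5 UW and 3 W cells. The part of immune RNA in the epithelial values of Hmox1 was not tested.

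The genes whose level was most like that of each member were taken from 10146 genes by Pearson r of log2(CPM + 1) over the 28 units. For Gsta4 these were Calml3 (r = 0.98), Nectin4 and Piga. Gsta2 was most like Gm45941 (0.95), Rbm20 and Dsg1b, and Ptgr1 most like Atl2 (0.95), Dsg1b and Card14, so that Dsg1b was shared. Gstm1 went with Dzip1 (0.94), C030006K11Rik and Gstm2 (0.93), another mu-class transferase, while Gclc went with Adpgk (0.97), Decr1 and Pdcd11 and Gclm with Mettl9 (0.91), Elp3 and Bcl7c. For Nqo1 they were Aig1 (0.92), Scrn2 and Bcar1. Txnrd1 was most like Map2k3 (0.93), Fth1 (0.90), the heavy chain of ferritin, and Smpdl3b. Hmox1 was most like Mpeg1 (0.92), a gene of macrophages, Milr1 and Ccl8, and Srxn1 had the weakest likeness, with Slco4a1 (0.80), Slfn5 and Atp6v1g1.

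Of 90 other genes of the pathway, 89 were in the table and 69 passed the count minimum in the summed epithelium. Among them, 12 were at least 2-fold higher in W and 5 at least 2-fold lower, beside 12.5% and 7.83% of all 7456 genes tested, and the median log2 ratio was 0.14 beside 0.05 over all genes. The highest were Akr1b8, an aldo-keto reductase (1.78 and 77.1 CPM, 5.44), Gpx2, a glutathione peroxidase of epithelia (0.303 and 11.2 CPM, 5.21), Prdx4, a peroxiredoxin of the endoplasmic reticulum (5.88 and 36.4 CPM, 2.63), Txn1, the cytosolic thioredoxin (582 and 2880.1 CPM, 2.31), and Ftl1, the light chain of ferritin (174 and 563 CPM, 1.69). Akr1b8 and Txn1 were at least 2-fold higher in each of the 10 epithelial clusters. The lowest were Ephx1, an epoxide hydrolase (43.5 and 15.8 CPM, -1.46), Txnip, which binds thioredoxin (271 and 129 CPM, -1.07), Chac1, which degrades glutathione (128 and 61.0 CPM, -1.07), and the transferases Gsto1 (19188 and 9180.3 CPM, -1.06) and Gstt3 (23.6 and 11.5 CPM, -1.04). Within single epithelial clusters, Gsto1 was at least 2-fold lower in 0 of 10 and Chac1 in 0 of 5 where they passed the minimum, Txnip in 5 of 10, Gstt3 in 4 of 9 and Ephx1 in 7 of 8. With TMM or with median-of-ratios scaling the split was 7 higher and 8 lower, and the members' own split of 1 and 1 became 0 higher and 2 lower.

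**Figure D4:**
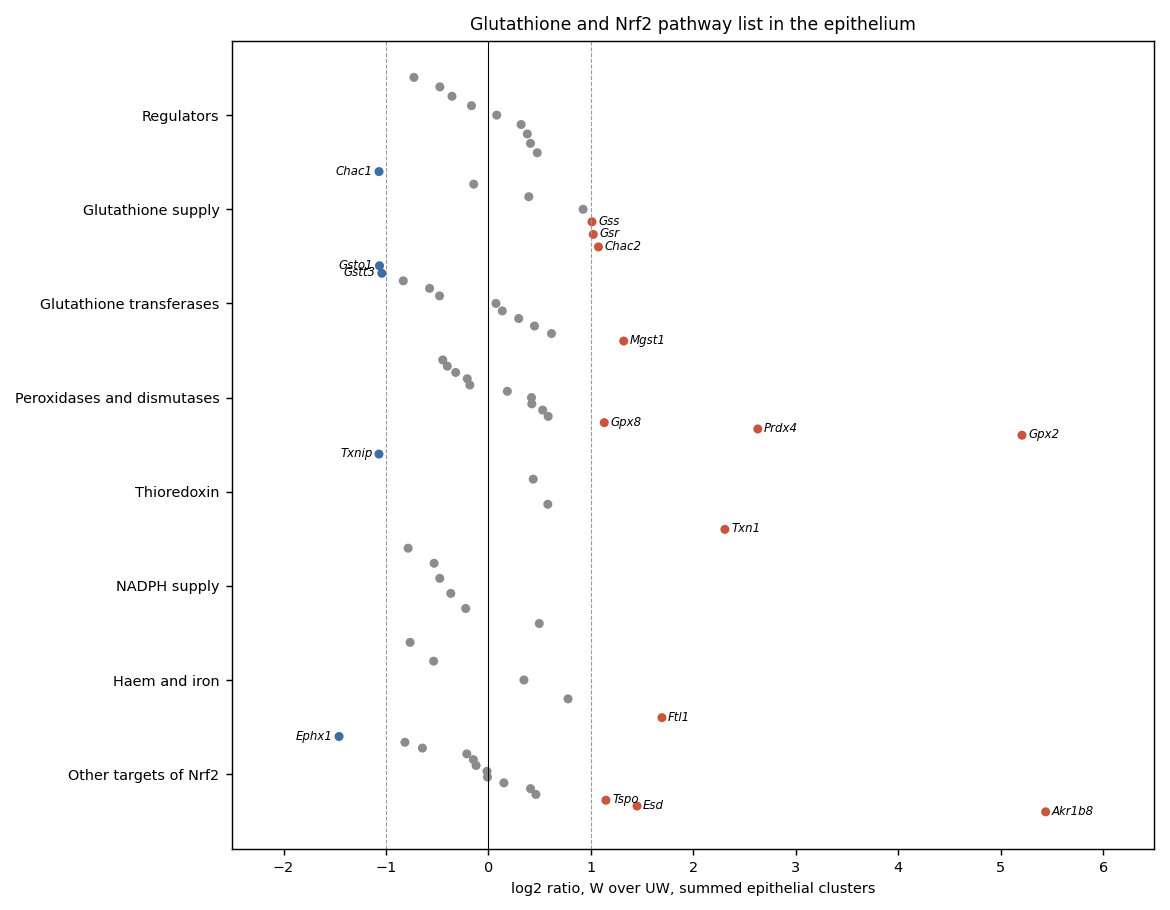
Log2 ratio of W over UW in the summed epithelial clusters (x axis) of the 69 pathway genes that passed the count minimum, by role (rows), with those at least 2-fold higher in red and at least 2-fold lower in blue. None of the 9 regulators is past 2-fold. Of glutathione supply 3 of 7 genes are higher and 1 lower, and of the peroxidases and dismutases 3 of 13 are higher, and with TMM or median-of-ratios scaling 0 and 2 are higher.

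Among the regulators of the pathway, Nfe2l2 was 56.7 CPM in UW and 70.7 CPM in W in the summed epithelium (log2 ratio 0.32), Keap1 27.1 and 37.7 CPM (0.48), and Bach1, the repressor of Hmox1, 46.1 and 48.7 CPM (0.08). None of the 9 regulators was past 2-fold there, although Sqstm1, which encodes a binding partner of Keap1 (named after its values were seen), was 223 and 135 CPM (-0.73) and at least 2-fold lower in 4 of 10 epithelial clusters. Glutathione supply had 3 genes higher and 1 lower of 7, the transferases 1 higher and 2 lower of 11, the peroxidases and dismutases 3 higher and 0 lower of 13, and the 6 genes of NADPH supply had none in either direction (median -0.42). With TMM or with median-of-ratios scaling these became 0 higher and 1 lower, 1 higher and 3 lower, 2 higher and 0 lower, and 0 higher and 1 lower, and no regulator passed 2-fold. In cluster 0, 12 of 71 pathway genes were at least 2-fold higher and 3 lower, where 4.23% and 5.27% of all genes were, with Nfe2l2 at 140 and 182 CPM (0.38), Keap1 at 61.1 and 52.4 CPM (-0.22) and Bach1 at 36.4 and 49.9 CPM (0.46). In cluster 10, 8 of 71 were higher and 3 lower, where 3.59% and 3.44% of all genes were.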

How the data were processed

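Single-cell RNA-seq was read from 1 UW and 1 W library of mouse cornea. The authors aligned reads and counted UMIs with Cell Ranger 3.1.0. The submitters' processing notes name mm9 and the methods name mm10, so gene positions came from GENCODE M21 (GRCm38) by symbol (19908 of 20198 genes matched). The deposited count table holds whole UMI counts per cell and gene, not normalized, for cells that the authors kept at 500 to 8000 genes and under 10% mitochondrial UMIs after doublet removal. The deposited metadata still marks 305 UW and 164 W of these cells as doublets in a first run, and they were kept except in an alternative without them. The deposited clusters were used. No doublet caller was run here.

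Counts were summed per cluster and library (at least 50 cells), and the log2 ratio of CPM was given with its exact conditional binomial 95% interval. With 1 library per condition there was no test, and "past 2-fold" was used among genes with at least 20 UMIs over both libraries and 10 CPM in one. A count of 0 was set to 3 counts. Thinning took 5000 UMIs per cell (2000 in clusters 13 to 16). The code for ratios and intervals was checked on counts simulated with known ratios, which bears on the code alone. edgeR 4.0.16 (TMM) and DESeq2 1.42.0 (median of ratios) gave the alternative scalings, with Python 3.11.15, scipy 1.17.1 and R 4.3.3.

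The text names all 10 members. Of the pathway list it names those past 2-fold in the summed epithelium, at most the 5 highest and 5 lowest, and Nfe2l2, Keap1 and Bach1. For likeness it names the 3 genes of highest r per member. The members and lists were chosen with earlier results of these data known.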

Additional observations from a re-analysis of the deposited data

Results flagged for a closer look

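Gsta2 differed between W and UW in opposite directions in different epithelial clusters: its log2 ratio was 1.85 in the superficial cluster 7 and -2.30 in the basal cluster 3, a difference of 4.15. The UW level in cluster 7 (7.77 CPM) was not above that in cluster 0 (8.05 CPM), where epithelial genes should be absent, so the ratio in cluster 7 has a UW level at background as its base, and TMM scaling brought it to 1.47. For Nqo1 the log2 ratio was 1.69 in cluster 6 and -1.06 in cluster 8 (-0.95 with TMM and -0.96 with median-of-ratios scaling), a difference of 2.75. With 1 library per condition, neither difference was tested.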

How the results depend on the processing

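No paired analysis was possible because each condition is 1 library. Relative to CPM, TMM and median-of-ratios scaling moved the log2 ratios by -0.22 and -0.23 in the summed epithelium, by -0.38 and -0.41 in cluster 7 and by 0.14 and 0.17 in cluster 0. Of 1060 recomputed member values, 27 changed sign. Of the 268 that were at least 2-fold in the main values, pairs under the count minimum included, 20 no longer were. Others reached 2-fold only under an alternative, such as Gsta2 in the summed epithelium with TMM scaling (-1.13) and Srxn1 in cluster 3 with thinning (1.27). The 1 member at least 2-fold higher in the summed epithelium became 0 with both scalings, thinning, the mean of per-cell CPM, equal weight of clusters and without cluster 7. The 1 lower member became 2 with both scalings and without cluster 7. The 12 higher pathway genes became 7 with both scalings, 21 with no count minimum and 5 with equal weight, and the 5 lower became 8 with both scalings and 3 with thinning and with per-cell CPM. The cause was not tested, except that no minimum admits more genes. The counts of 13 higher and 15 lower pairs stayed within 1.5 times under each alternative run. Leaving out cluster 7, or the cells with a barcode in both libraries, was chosen after seeing the data. No replicate could be left out.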

Other observations

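Of the pathway genes not named above, 3 are given here for clusters 0 and 10 beside the summed epithelium. They were picked after their values were seen. Slc7a11, the cystine transporter that feeds glutathione synthesis, was 3.73 CPM in UW and 40.3 CPM in W in cluster 0 (log2 ratio 3.43), and 5.95 and 28.7 CPM in cluster 10 (2.27). In the summed epithelium it was 0.55 and 3.44 CPM (2.65), under the count minimum. Sod2, the mitochondrial superoxide dismutase, was 142 and 845 CPM in cluster 0 (2.57) and 128 and 304 CPM in cluster 10 (1.25), and 224 and 164 CPM in the summed epithelium (-0.45). Gstp1, a pi-class transferase, was lower in W in both, with 58.5 and 12.7 CPM in cluster 0 (-2.21) and 58.3 and 11.5 CPM in cluster 10 (-2.34). It was lower in the summed epithelium too (12.7 and 7.14 CPM, -0.83) and at least 2-fold lower in 7 of the 7 epithelial clusters where it passed the minimum.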
